A study of Mus musculus with 36 samples.

Results

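The genes described here are those of the proteasome, taken as every gene whose only symbol on its probe sets starts with Psma, Psmb, Psmc, Psmd, Psme, Psmf or Psmg followed by a digit. The rule gave 49 genes on 103 of 45037 probe sets, out of 18193 genes with a probe set of their own, and it used no measured value. Each gene was represented in a tissue by its probe set of highest mean there. No filter on low values was applied, so all 49 were tested in both tissues. They comprised 7 genes of the alpha ring of the 20S core and the germ cell form Psma8, 7 constitutive beta ring genes, the 3 immunoproteasome beta genes, the thymus form Psmb11, 6 ATPases and 3 other subunits of the 19S base, 8 lid subunits, 3 activators, 1 inhibitor, and 4 and 3 assembly chaperones of the 20S and 19S particles. Psmc3ip and Psme3ip1 fit the rule by symbol, but their names are those of interacting proteins and not of subunits. Psme2, the partner of Psme1, was on 1 probe set that also names Psme2b, and was therefore not counted.

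Whole brain and liver came from male mice aged 12 to 13 weeks, of 3 inbred lines, DBA/2J, AKR/J and C57BL/6J. In each strain 9 mice were kept awake for the first 6 h of the light period and 9 were left undisturbed as controls, and all are titled as killed at ZT6, which is 6 h after lights on. RNA was pooled from 3 mice for each array, which gave 3 arrays for each of 12 groups, 36 in all. For AKR/J controls 2 and 3 of each tissue the title gives ZT6 but the source field ZT0, so counts that moved when these 4 arrays were left out are also given without them. Since an array is a pool, the errors below are the spread between pools, and the labels name no transgene or induced allele.

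The proteasome degrades proteins that carry ubiquitin chains. Its barrel-shaped 20S core holds the proteolytic sites on its beta rings, behind alpha rings that gate the entrance, and the 19S particle at either end binds, unfolds and deubiquitinates substrates. Under interferon, and constitutively in immune cells, the 3 catalytic beta subunits are exchanged for inducible ones to form the immunoproteasome, whose peptides feed antigen presentation, and the Psme activators can take the place of the 19S particle. Most other subunit genes are transcribed together at a steady, high level in nearly every tissue, and the transcription factor encoded by Nfe2l1 raises them as a set when the proteasome is impaired.

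Values are log2 RMA signals, so a difference of 1 is a 2-fold change, and ± is the standard error of a difference unless it is called SD. A difference was called when its adjusted p was under 0.05. The p came from limma over the 18 arrays of a tissue, adjusted by Benjamini-Hochberg over all 45037 probe sets. The array medians lay between 4.73 and 4.86 in brain and between 4.05 and 4.13 in liver, and levels were not compared between tissues or between genes. Neuronal markers had a median level at percentile 99.0 in brain and 37.3 in liver among all probe sets, and hepatocyte markers at 99.96 in liver and 35.5 in brain. Of the brain arrays, 3 sleep-deprived ones had a narrower spread of values (C57BL/6J 1, AKR/J 3 and DBA/2J 2), and 2 controls had a raised 3′ to 5′ difference for actin (C57BL/6J 2 and DBA/2J 3), as had DBA/2J control 1 in liver. These 6 arrays are called the arrays in doubt, and counts of called members that changed without them are given beside the result.

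Whether sleep deprivation changed these transcripts was asked first of the mean over the 3 strains. In brain, 0 of 49 genes were called in either direction, where 2.55% of all genes were, 0.951% higher and 1.6% lower. At an unadjusted p under 0.05 there were 5 of 49 genes, Psme1, Psme3, Psme4, Psmb10 and Psmd3 (12.1% of all probe sets). The differences ran from -0.20 to 0.18, with a median of -0.02 (all genes, -0.01), and 16 of 49 lay above 0 (46.2% of all genes). Of 47 members above the median brain level, 15 lay above 0 (38.8% of all genes above that level, whose median was -0.03). The widest 95% intervals among the 49 reached -0.34 and 0.31. In liver 1 gene was called, Psmb10, which was lower (1.91% of all genes were called lower, 2.97% higher and 4.88% either way). Differences in liver ran from -0.32 to 0.22, with a median of -0.03 (all genes, -0.02), and 12 of 49 lay above 0 (42.4% of all genes). There 10 of 49 had an unadjusted p under 0.05 (15.5% of all probe sets). Of 47 members above the median liver level, 12 lay above 0 (47.0% of all genes above that level, whose median was -0.01). Without the arrays in doubt 1 gene was called in brain, Psmf1, lower, and 0 in liver, where 0 were also called with AKR/J controls 2 and 3 left out.

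**Figure D1:**
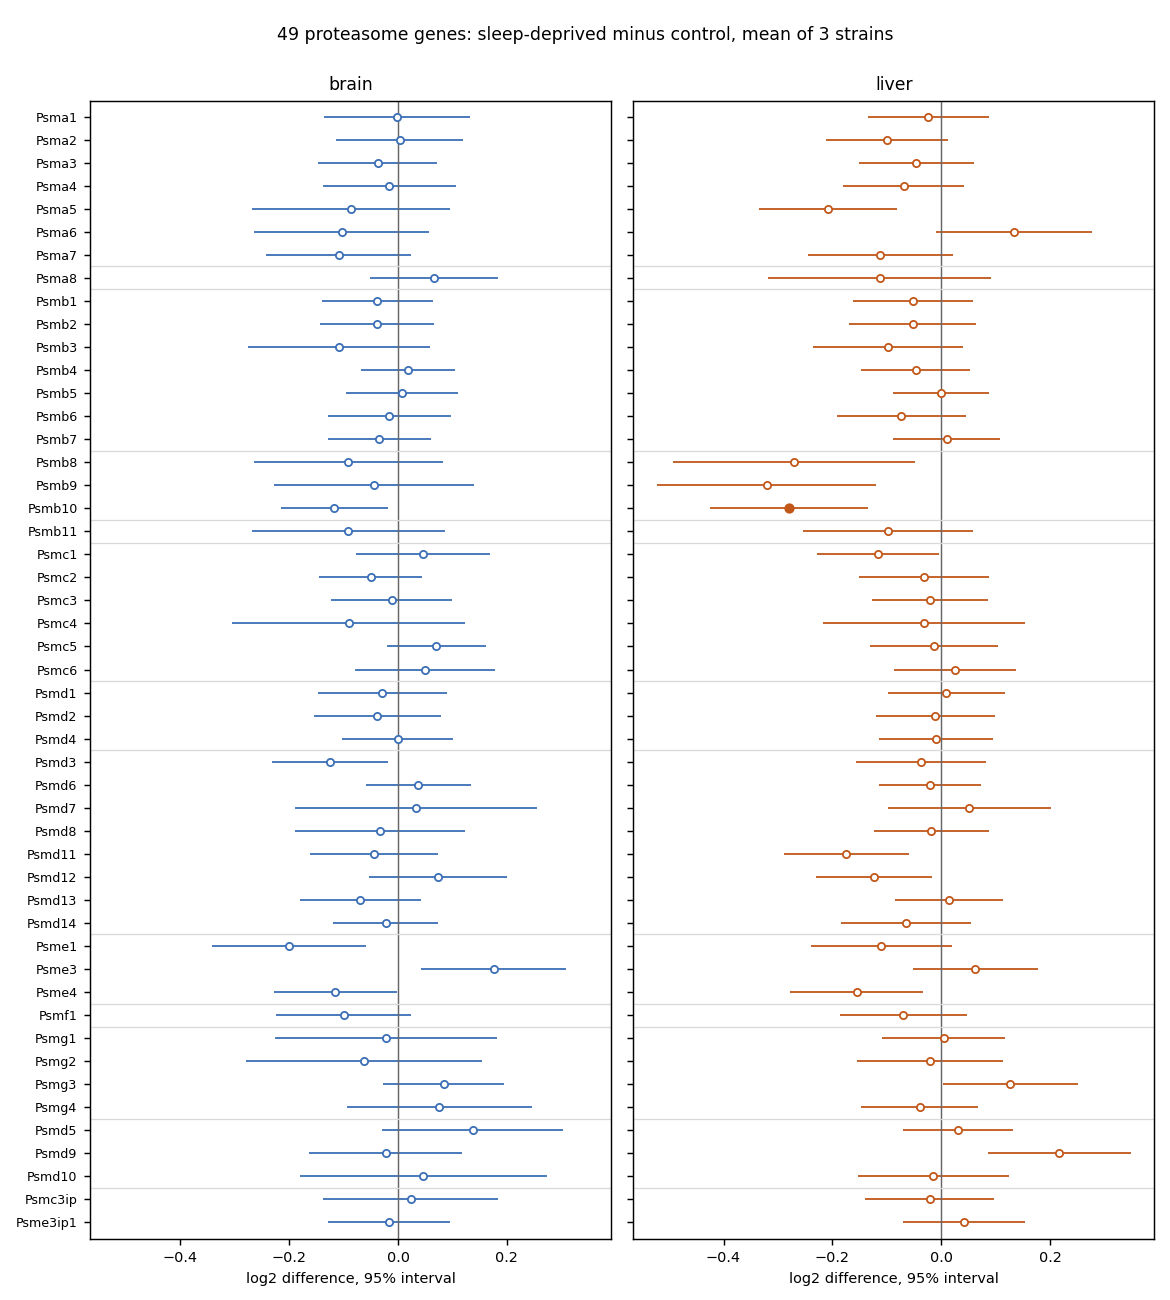
Sleep-deprived minus control as the mean over 3 strains (log2 difference on the horizontal axis) for the 49 genes in brain (left) and liver (right), ordered by role with grey lines between roles. Points are estimates, bars 95% intervals and filled points called genes. No brain gene is filled, and in liver the only filled point is Psmb10 at -0.28.

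None of the genes of the standard core was called in either tissue. In brain the largest differences were -0.11 ± 0.06 for Psma7 in the alpha ring (adjusted p = 0.5471) and -0.11 ± 0.08 for Psmb3 in the beta ring (adjusted p = 0.6716). The constitutive catalytic subunits differed by 0.01 ± 0.05 for Psmb5, the chymotrypsin-like site, by -0.02 ± 0.05 for Psmb6, the caspase-like site, and by -0.03 ± 0.04 for Psmb7, the trypsin-like site. Their liver differences were -0.00 ± 0.04, -0.07 ± 0.06 and 0.01 ± 0.05. In liver Psma5 of the alpha ring was at -0.21 ± 0.06, with an adjusted p of 0.0677, and Psmb3 at -0.10 ± 0.07 (adjusted p = 0.525). Psma8 and Psmb11, the forms of testis and thymus, had low signals in both tissues, at percentiles 20.5 and 29.7 of the brain levels and 45.1 and 42.8 of the liver levels. Neither was called under sleep deprivation or between the controls of any pair of strains.

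None of the 19S genes was called either. Among the base ATPases, which unfold the substrate, the largest difference was -0.09 ± 0.10 for Psmc4 in brain and -0.12 ± 0.05 for Psmc1 in liver (adjusted p = 0.8156 and 0.2987). The ubiquitin receptor Psmd4 differed by -0.00 ± 0.05 in brain and -0.01 ± 0.05 in liver, and the other non-ATPases of the base, Psmd1 and Psmd2, were within 0.04 of 0 in both tissues. In the lid, Psmd3 was at -0.13 ± 0.05 in brain (adjusted p = 0.2991). The lid scaffold Psmd11 was at -0.17 ± 0.05 in liver (adjusted p = 0.0942) and at -0.04 ± 0.06 in brain.

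Psmd11 has 8 probe sets, and in brain another of them was called higher at 0.16 ± 0.04 (adjusted p = 0.0457), opposite in sign to the representative. The 9 control arrays read 8.30 to 8.43 on it and the 9 sleep-deprived arrays 8.47 to 8.61, with no overlap. The other 6 probe sets of the gene ran from -0.11 to 0.10 and none was called, so the direction for Psmd11 in brain depended on the probe set.

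Of the activators, the interferon-inducible Psme1 and the nuclear Psme3 were the 2 extremes in brain. Psme1 read 8.28, 8.22 and 8.10 in C57BL/6J controls against 7.98, 8.07 and 8.11 after sleep deprivation, 8.33, 8.23 and 8.26 against 8.20, 8.17 and 7.78 among AKR/J arrays, and for DBA/2J 8.50, 8.45 and 8.24 against 8.33, 7.98 and 8.18. The sleep-deprived mean was below the control mean in every strain, with overlapping arrays in C57BL/6J and DBA/2J, and the difference of -0.20 ± 0.07 was not called (adjusted p = 0.1775). Psme3 lay at 0.18 ± 0.06 (adjusted p = 0.2228), with sleep-deprived means above the control means in all 3 strains. In liver the largest activator difference was -0.16 ± 0.06 for Psme4, the PA200 cap (adjusted p = 0.1795).

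The inhibitor Psmf1, known as PI31, gave different values on its 4 probe sets in brain. Its representative differed by -0.10 ± 0.06 (adjusted p = 0.5589). A dimmer probe set was called, at -0.48 ± 0.11 (adjusted p = 0.0294). On that probe set C57BL/6J controls read 6.15, 6.14 and 6.29 and sleep-deprived arrays 5.32, 5.89 and 5.96. AKR/J controls read 6.52, 5.89 and 6.23 against 5.79, 5.94 and 5.59, and DBA/2J controls 6.43, 6.25 and 6.37 against 6.00, 5.41 and 6.00. The groups overlapped in AKR/J alone. The other probe sets were at -0.53 ± 0.14 (adjusted p = 0.0633) and, on the dimmest, at -0.08 ± 0.08 (adjusted p = 0.7637). In liver the 4 probe sets ran from -0.07 to 0.02, and which transcripts each one reads was not examined.

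Among assembly chaperones, which put the particles together and leave, Psmg3 was at 0.08 ± 0.05 in brain and 0.13 ± 0.06 in liver (adjusted p = 0.5988 and 0.3097). The 19S chaperone Psmd5 was at 0.14 ± 0.08 in brain (adjusted p = 0.5467). Psmd9 was at 0.22 ± 0.06 in liver (adjusted p = 0.0651). Its liver values in C57BL/6J were 7.94, 7.84 and 7.83 in controls and 8.32, 8.05 and 8.56 after sleep deprivation, with no overlap, while the AKR/J and DBA/2J means differed by 0.12 ± 0.11 and 0.10 ± 0.11.

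The immunoproteasome genes were the members with the most negative liver values. Psmb10, which replaces Psmb7, read 8.72, 8.65 and 8.73 in C57BL/6J liver controls and 8.60, 8.54 and 8.66 after sleep deprivation. In AKR/J the controls read 8.81, 8.83 and 8.88 against 8.60, 8.66 and 8.71, and DBA/2J controls 9.67, 9.77 and 9.16 against 9.11, 9.01 and 8.81. The groups overlapped only in C57BL/6J, by 1 array. The mean difference was -0.28 ± 0.07 (adjusted p = 0.0278), a fall to 0.824 of the control level, and the call was lost under 13 of 29 alternatives. Those were leaving out AKR/J, AKR/J controls 2 and 3 together, median centring, and leaving out singly DBA/2J control 1 or 2 or sleep-deprived 3, C57BL/6J control 1 or 3 or sleep-deprived 2, and AKR/J control 3 or sleep-deprived 1 or 2. Without DBA/2J control 3, 5 genes were called lower, namely Psma5, Psmb8, Psmb9, Psmb10 and Psmd11. Psmb9 and Psmb8, which replace Psmb6 and Psmb5, were at -0.32 ± 0.10 and -0.27 ± 0.11 (adjusted p = 0.0772 and 0.202).

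**Figure D2:**
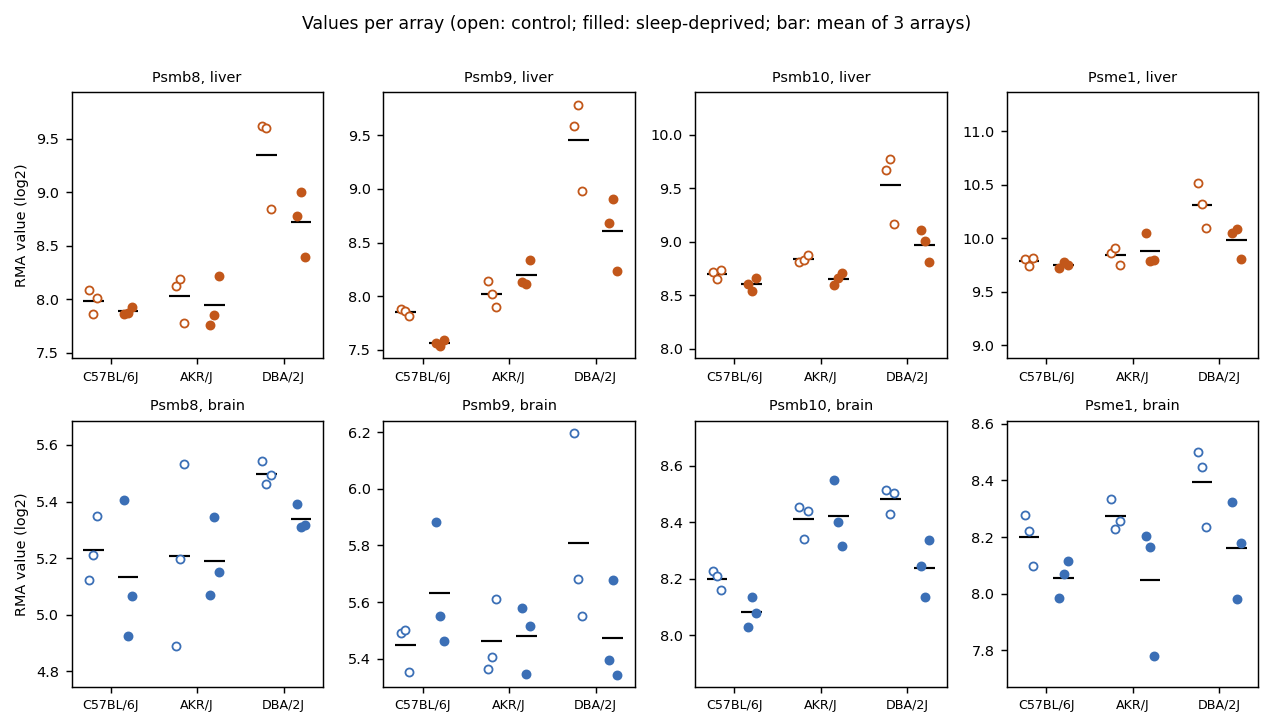
RMA values (log2, vertical axis) of Psmb8, Psmb9, Psmb10 and Psme1 in every array of liver (top) and brain (bottom), by strain, with open points for controls, filled points for sleep-deprived arrays and bars for group means. Panels of a row share the length of their axis but not its position. In liver the DBA/2J controls stand above all arrays of the other strains for each gene, and in the top row the DBA/2J sleep-deprived arrays lie below their controls for Psmb9 and Psmb10.

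By strain, 0 of 49 genes were called in C57BL/6J, AKR/J or DBA/2J brain (0.055%, 0.423% and 0.148% of all genes) and 0 in C57BL/6J or AKR/J liver (0.803% and 1.03%). Without the arrays in doubt Psmg4 was called in AKR/J brain, and none of these other counts changed. In DBA/2J liver 2 were called, both lower (0.302% of all genes were called lower there and 0.846% either way, with 0.544% higher). Psmb9 read 9.59, 9.79 and 8.98 in DBA/2J controls and 8.69, 8.90 and 8.23 after sleep deprivation, a difference of -0.85 ± 0.17 (adjusted p = 0.0248), a fall to 0.557 of the control level. In C57BL/6J the same gene read 7.88, 7.86 and 7.81 against 7.56, 7.53 and 7.59, which is -0.29 ± 0.17, and in AKR/J 8.14, 8.02 and 7.90 against 8.13, 8.11 and 8.34, which is 0.17 ± 0.17. Sleep-deprived arrays thus lay below all controls in C57BL/6J and DBA/2J but not in AKR/J.

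Psmb10 was the other gene called in DBA/2J liver, at -0.56 ± 0.12 (adjusted p = 0.0401). Psmb8 read 9.62, 9.60 and 8.85 in the controls and 8.78, 9.01 and 8.40 after sleep deprivation, with overlap, and its -0.63 ± 0.18 was not called (adjusted p = 0.1439). Psme1 was at -0.33 ± 0.11 (adjusted p = 0.1822). Array 3 was the lowest of its group for each of these 4 genes in DBA/2J, controls and sleep-deprived alike. Both calls were lost without DBA/2J control 1, the array with the raised actin difference, and also without DBA/2J control 2, sleep-deprived 1 or sleep-deprived 3, while without control 3 there were 4 calls. With AKR/J controls 2 and 3 left out, which enter only the estimate of the spread here, Psmb9 alone was called. Over 29 alternatives Psmb9 lost its call in 6 and Psmb10 in 16.

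Across all 49 genes, 9 lay above 0 in DBA/2J liver (42.8% of all genes), with a median of -0.11 (all genes, -0.03). In C57BL/6J liver 16 lay above 0 and in AKR/J liver 30 (47.0% and 47.7% of all genes). The difference between strains itself was tested as an interaction, and 0 of 49 genes were called in brain or liver (0% and 0.033% of all genes). At an unadjusted p under 0.05 there were 0 and 3 (2.23% and 6.83% of all probe sets). For Psmb9 in liver the interaction had an adjusted p of 0.3941 with all arrays, and it was called without DBA/2J control 3. The effect in DBA/2J minus that in AKR/J, a contrast added after the data were seen, was -1.02 ± 0.24 for this gene (adjusted p = 0.2535). With all arrays, no member thus passed a test of a strain difference in the response. The effect in liver minus that in brain was likewise called for 0 of 49 genes (2.04% of all genes).

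Strain differences among the undisturbed controls were larger. In liver the test over the 3 strains called 8 of 49 genes (12% of all genes), Psmb6, Psmb8, Psmb9, Psmb10, Psmd1, Psmd11, Psme1 and Psmg4, and in brain 2 (3.11% of all genes), Psmb6 and Psme4. The share in liver, 8 of 49, was close to the background, while the sizes were unequal, with Psmb9 at the top.

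**Figure D3:**
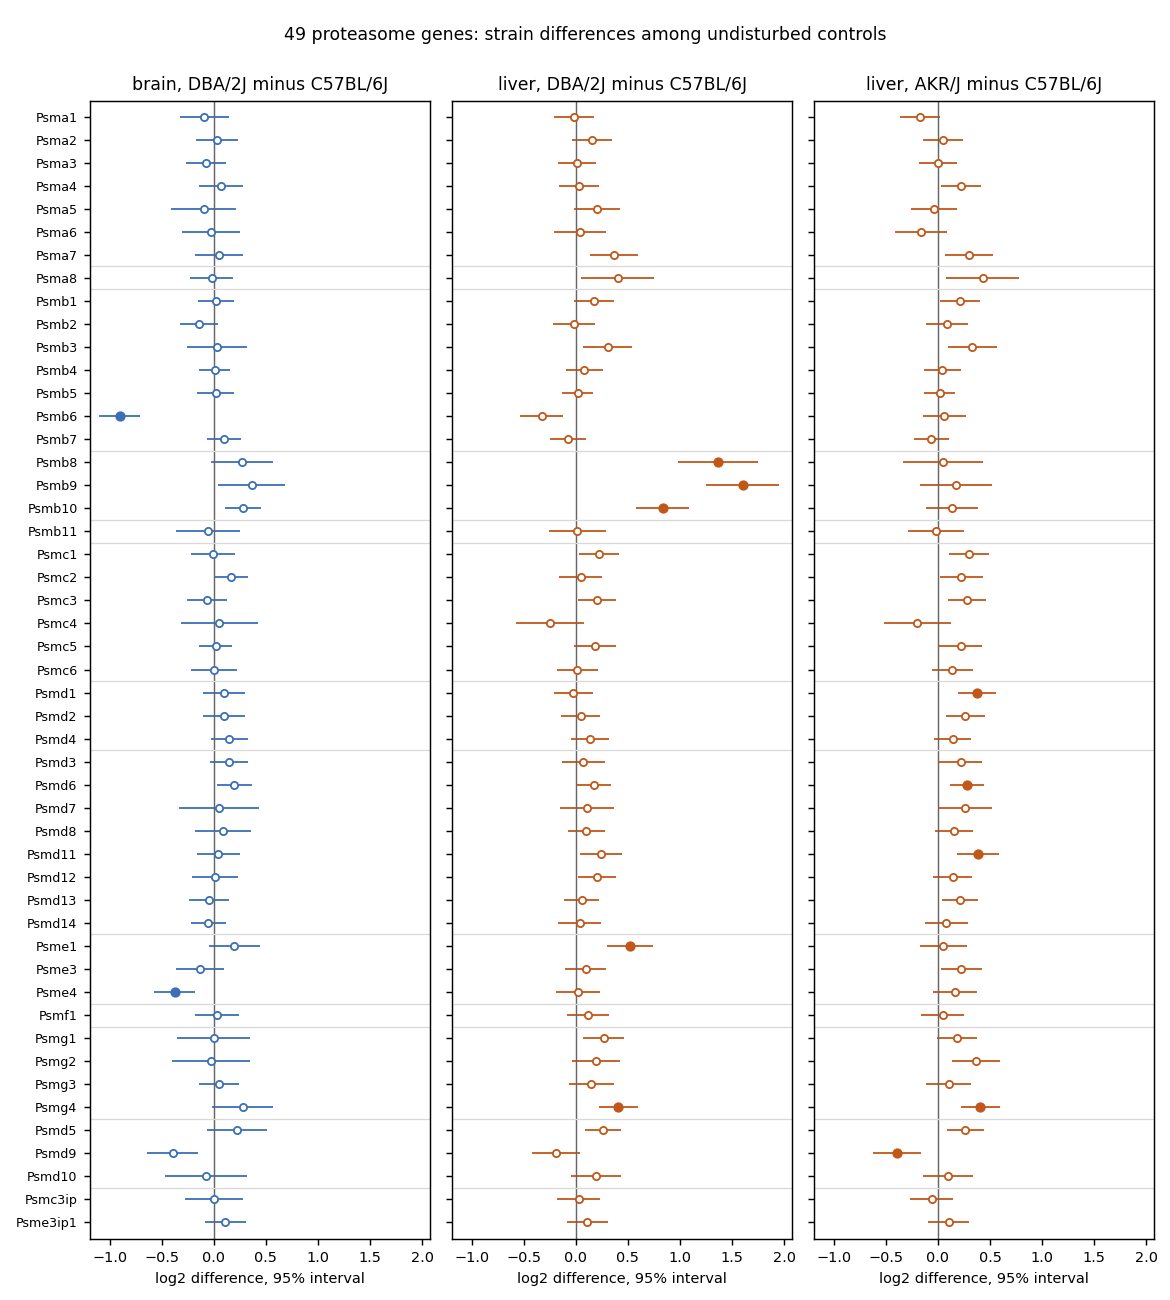
Strain differences among controls (log2 difference on the horizontal axis) for the 49 genes ordered by role, as DBA/2J minus C57BL/6J in brain and in liver and AKR/J minus C57BL/6J in liver. Points are estimates, bars 95% intervals and filled points called genes. Psmb6 stands at -0.90 in brain, Psmb8, Psmb9, Psmb10 and Psme1 stand to the right in DBA/2J liver, and most AKR/J liver points lie right of 0.

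In liver, DBA/2J controls exceeded C57BL/6J controls in 5 genes and were lower in none (5.41% and 2.56% of all genes). They were the 3 immunoproteasome genes, the activator Psme1 and the assembly chaperone Psmg4. Psmb9 was 3.04-fold higher, at 1.60 ± 0.17 (adjusted p = 2.756e-06), Psmb8 2.58-fold at 1.37 ± 0.18 (adjusted p = 7.219e-05), and Psmb10 1.78-fold at 0.83 ± 0.12 (adjusted p = 1.623e-04). Psme1 was 1.43-fold higher at 0.52 ± 0.11 (adjusted p = 0.0049), from 10.52, 10.32 and 10.09 in DBA/2J and 9.81, 9.74 and 9.82 in C57BL/6J. For all 4 genes the lowest DBA/2J control stood above the highest C57BL/6J and AKR/J control. The calls for Psmb8, Psmb9 and Psmb10 were kept under all 30 alternatives. Without DBA/2J control 1, Psmb6 was called as well, lower, which made 6.

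Against AKR/J controls the same 4 genes were called higher in DBA/2J, by 1.43 ± 0.17 for Psmb9, 1.32 ± 0.18 for Psmb8, 0.69 ± 0.12 for Psmb10 and 0.47 ± 0.11 for Psme1 (3.46% of all genes were called higher). Called lower were 2 genes, Psmb6 and the base subunit Psmd1 (2.43% of all genes). With AKR/J controls 2 and 3 left out, 2 genes were called in this comparison in place of 6, Psmb8 and Psmb9. Without DBA/2J control 1, the liver array in doubt, 4 were called, since Psme1 and Psmd1 were not. Both comparisons share the DBA/2J controls. Psmb8 is also read by a dim second probe set, on which DBA/2J minus C57BL/6J was 0.48 ± 0.14 in liver (not called) and DBA/2J minus AKR/J 0.54 ± 0.14 (adjusted p = 0.0343). In sleep-deprived mice, where the strain differences were computed after the data were seen, DBA/2J minus C57BL/6J in liver was 1.05 ± 0.17 for Psmb9 and 0.84 ± 0.18 for Psmb8, both called, and 0.37 ± 0.12 for Psmb10, not called (adjusted p = 0.0782). Of the 49 genes, 3 were higher and 2 lower there (8.4% of all genes either way). In sleep-deprived liver Psmb8 was also called higher in DBA/2J than in AKR/J, whereas Psmb9, Psmb10 and Psme1 were not called.

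In brain controls none of these 4 genes was called. With both conditions averaged, Psmb10 was called higher than in C57BL/6J in both DBA/2J (0.22) and AKR/J brain. With AKR/J controls 2 and 3 left out, neither averaged contrast called a member higher. Among sleep-deprived brain arrays Psmb10 was 0.34 ± 0.08 higher in AKR/J than in C57BL/6J (adjusted p = 0.0385). Psmb9 read 5.49, 5.50 and 5.35 in C57BL/6J controls, 5.37, 5.41 and 5.61 in AKR/J, with 6.20, 5.68 and 5.55 in DBA/2J, where the first array stood apart. Among brain controls DBA/2J minus C57BL/6J was 0.36 ± 0.15 for Psmb9, 0.27 ± 0.14 for Psmb8 and 0.28 ± 0.08 for Psmb10, none called (adjusted p = 0.4616, 0.7011 and 0.1108). The difference between the tissues was itself tested in a fit over all 36 arrays, a test added after the data were seen. That fit treated brain and liver arrays as independent, without a term for mice shared between tissues. The DBA/2J minus C57BL/6J difference in liver exceeded that in brain by 1.24 ± 0.24 for Psmb9, 1.10 ± 0.24 for Psmb8 and 0.55 ± 0.15 for Psmb10, all called (3.33% of all genes were). Without the 6 arrays in doubt the values were 1.02, 0.97 and 0.49, and of these 3 only Psmb9 was still called (adjusted p = 0.0288, with 0.0653 for Psmb8 and 0.1558 for Psmb10). Psmb8 and Psmb9 had mean signals at percentiles 57.4 and 61.2 of the brain levels and 92.0 and 91.9 of the liver levels. Psmb10 was at 90.4 and 94.2. Whether the lower brain signal bears on the tissue difference was not tested.

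Psmb8 and Psmb9 are neighbours of the antigen peptide transporter gene Tap1, at chr17:34198195-34201454 and chr17:34182030-34187330 (GRCm38.p6). Psmb9 and Tap1 are transcribed away from each other from starts 225 bases apart, and the end of Tap1 is 969 bases from the start of Psmb8. Psmb10 is at chr8:105935728-105938392. The RefSeq sequences of the 250 bases before these starts are given here with that of Psmb6, because these 4 members had the largest called strain differences. They are the reference (C57BL/6J) sequences, on the strand of the gene, and capitals mark matches to any of 5 short motifs.
Psmb8, chr17:34197945-34198194, plus strand: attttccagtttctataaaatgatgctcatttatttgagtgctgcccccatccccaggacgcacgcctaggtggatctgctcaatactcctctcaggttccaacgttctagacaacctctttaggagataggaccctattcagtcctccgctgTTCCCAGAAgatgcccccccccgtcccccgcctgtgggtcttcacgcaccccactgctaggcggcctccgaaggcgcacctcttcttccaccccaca
Psmb9, chr17:34187331-34187580, minus strand: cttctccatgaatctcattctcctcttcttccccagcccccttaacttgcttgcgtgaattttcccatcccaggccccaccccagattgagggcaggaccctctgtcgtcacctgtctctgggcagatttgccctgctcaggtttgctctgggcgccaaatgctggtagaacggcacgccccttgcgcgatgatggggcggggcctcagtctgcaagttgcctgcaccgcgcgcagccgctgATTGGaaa
Psmb10, chr8:105938393-105938642, minus strand: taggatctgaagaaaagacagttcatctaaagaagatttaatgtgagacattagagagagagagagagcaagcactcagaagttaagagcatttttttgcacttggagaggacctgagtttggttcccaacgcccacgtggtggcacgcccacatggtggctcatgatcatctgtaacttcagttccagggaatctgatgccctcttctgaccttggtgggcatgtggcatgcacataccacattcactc
Psmb6, chr11:70525107-70525356, plus strand: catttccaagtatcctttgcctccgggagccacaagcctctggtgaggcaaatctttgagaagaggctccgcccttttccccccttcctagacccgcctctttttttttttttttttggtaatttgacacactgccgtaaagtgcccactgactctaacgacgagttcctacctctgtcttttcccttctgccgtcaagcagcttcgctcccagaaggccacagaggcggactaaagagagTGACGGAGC

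The motifs were searched on both strands of these 250 bases, in 44 promoters of 41 member genes and in 32851 promoters in all. Psmb8 holds TTCCCAGAA, a match to the gamma-activated sequence TTCNNNGAA bound by STAT factors, 97 to 89 bases before the start. That motif is in 2 of 44 member promoters, Psmb8 and Psmg1, and in 7.02% of all. The core of the interferon-stimulated response element, GAAA, any 2 bases and GAAA, is in 3 of 44, Psmb3, Psmd4 and Psmd9, and in 2.98% of all, and the kappaB motif, GGGA, any 2 bases and TTCC, is in Psme4 alone of the members and in 1.21% of all. Psmb9 holds CCAAT, read as ATTGG, 8 to 4 bases before the start, a box found in 16 of 44 member promoters and 33.8% of all. Psmb10 holds none of the 5. The antioxidant response element core TGACNNNGC, the kind of site through which the factors of Nfe2l1 and Nfe2l2 act, is in 5 of 44, Psmb5, Psmb6, Psmc6, Psmd12 and Psmd9, and in 10.2% of all, and in Psmb6 it is TGACGGAGC in the last 9 of the 250 bases. The start used for the Psmb6 promoter is 33 bases downstream of the start of the gene in the RefSeq gene table, so this match lies before the one start and after the other. For Psmb8, Psmb9 and Psmb10 the starts are the same. These are matches of letters, not measured binding sites.

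Psmb6, the constitutive subunit that Psmb9 replaces, was low in DBA/2J. In brain it read 9.48, 9.37 and 9.36 in C57BL/6J controls, 9.32, 9.31 and 9.43 in AKR/J controls and 8.50, 8.48 and 8.51 in DBA/2J controls. After sleep deprivation it read 9.17, 9.41 and 9.39 in C57BL/6J, 9.62, 9.44 and 9.27 in AKR/J, with 8.44, 8.37 and 8.52 in DBA/2J. All 6 DBA/2J arrays thus lay far below the other 12. DBA/2J minus C57BL/6J was -0.90 ± 0.09 (adjusted p = 1.090e-05), a level 0.535 of that of C57BL/6J, and DBA/2J minus AKR/J was -0.85 ± 0.09 (adjusted p = 2.490e-05). In both of these comparisons 2 members were called lower, Psmb6 and Psme4, and none higher (0.984% and 0.781% of all genes were called lower, 1.77% and 1.54% either way), and 0 were called between AKR/J and C57BL/6J (2.01% either way). Psmb6 was the only member called in each with AKR/J controls 2 and 3 left out.

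**Figure D4:**
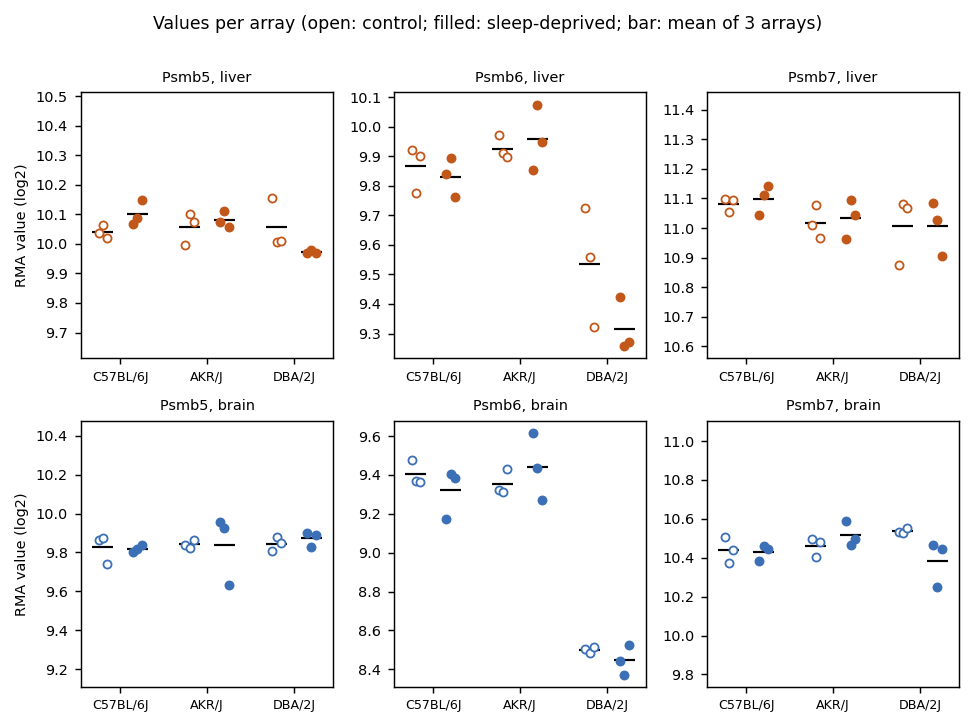
RMA values (log2, vertical axis) of the constitutive catalytic genes Psmb5, Psmb6 and Psmb7 in every array of liver (top) and brain (bottom), by strain, with open points for controls, filled points for sleep-deprived arrays and bars for group means. Psmb6 is lower in all DBA/2J arrays, from 8.37 to 8.52 in brain, whereas Psmb5 and Psmb7 differ by at most 0.10 between DBA/2J and C57BL/6J controls.

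In liver Psmb6 read 9.92, 9.78 and 9.90 in C57BL/6J controls, 9.97, 9.91 and 9.90 in AKR/J, with 9.73, 9.56 and 9.32 in DBA/2J, and 9.42, 9.26 and 9.27 in sleep-deprived DBA/2J. DBA/2J controls were lower than AKR/J controls by -0.39 ± 0.10 (adjusted p = 0.0262). Against C57BL/6J the value was -0.33 ± 0.10 (adjusted p = 0.0567), not called, and among sleep-deprived arrays -0.51 ± 0.10 (adjusted p = 0.0024). The DBA/2J minus C57BL/6J value was less negative in liver than in brain, by 0.57 ± 0.13 (adjusted p = 0.0109), and by 0.50 without the 6 arrays in doubt (adjusted p = 0.0397). Psmb5 and Psmb7 differed between the same controls by 0.02 ± 0.08 and 0.10 ± 0.08 in brain and by 0.02 ± 0.07 and -0.07 ± 0.08 in liver. Psmb6 has 1 probe set, and how well its probes match the AKR/J and DBA/2J sequences was not tested.

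Psme4 was the other member called in brain. Controls read 7.55, 7.54 and 7.52 in C57BL/6J, 7.43, 7.72 and 7.59 in AKR/J, with 7.04, 7.16 and 7.29 in DBA/2J, without overlap. The differences were -0.38 ± 0.09 and -0.42 ± 0.09 (adjusted p = 0.0459 and 0.0244). The other 5 probe sets of the gene ran from -0.21 to 0.39 for DBA/2J minus C57BL/6J, none called, and in liver the representative was at 0.02 ± 0.10. The brain call against C57BL/6J was lost under 18 of 32 alternatives and that against AKR/J under 9, whereas both calls of Psmb6 were kept under all 32. Psmd6, a lid subunit, also gave opposite signs on its 2 probe sets for DBA/2J minus C57BL/6J, 0.20 and -0.45 in brain and 0.18 and -0.40 in liver, none called.

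In liver most members read lower in C57BL/6J controls than in either other strain. AKR/J controls were above C57BL/6J controls in 41 of 49 genes (83.7%, against 54.7% of all genes), with a median of 0.14 (all genes, 0.02). DBA/2J controls were above the same C57BL/6J controls in 42 of 49 (85.7%, against 54.9%), with a median of 0.11 (all genes, 0.02). In AKR/J, called higher were 4 genes (4.76% of all genes), the base subunit Psmd1 at 0.37 ± 0.09 (adjusted p = 0.0159), the lid subunits Psmd11 at 0.38 ± 0.09 (adjusted p = 0.0206) and Psmd6 at 0.28 ± 0.08 (adjusted p = 0.0407), and the 20S assembly chaperone Psmg4 at 0.41 ± 0.09 (adjusted p = 0.0091). The second probe set of Psmd6 was at -0.15 ± 0.13, and the call of that gene was lost under 15 of 30 alternatives, with 0.07 for the mean of its probe sets (adjusted p = 0.7555). The chaperone Psmd9 was called lower at -0.39 ± 0.11 (adjusted p = 0.0408; 2.42% of all genes were lower). Psmg4 read 7.43, 7.20 and 7.21 in C57BL/6J, 7.71, 7.72 and 7.63 in AKR/J, with 7.79, 7.77 and 7.52 in DBA/2J, so both other strains lay above C57BL/6J. Psmd1 read 9.49, 9.58 and 9.66 in C57BL/6J, 9.86, 10.04 and 9.95 in AKR/J, with 9.42, 9.61 and 9.62 in DBA/2J, so AKR/J alone stood out. With AKR/J controls 2 and 3 left out 0 of the 5 were called, and without 1 array at a time 1 to 7 genes were, with 1 left without AKR/J control 2 or C57BL/6J control 3, 2 without C57BL/6J control 1 or 2, and 3 without AKR/J control 1 or DBA/2J sleep-deprived 1 or 3. Without DBA/2J control 1 there were 7, with Psmb3 and Psmg2 added.

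With both conditions averaged, 20 of 49 genes were higher in AKR/J than in C57BL/6J liver and 1, Psmd9, was lower (10.5% of all genes were called higher and 16.5% either way), with a median of 0.17 and called increases of 0.20 to 0.46. They included the base ATPases Psmc1, Psmc2, Psmc3 and Psmc5, the lid and base subunits Psmd1, Psmd2, Psmd6, Psmd8, Psmd11 and Psmd13, and core subunits such as Psma4, Psma7, Psmb1 and Psmb3. The immunoproteasome gene Psmb9 was among them too. With AKR/J controls 2 and 3 left out 8 were called higher, with a median of 0.14. For DBA/2J minus C57BL/6J this averaged contrast called 9 higher and 2 lower (10.9% of all genes higher, 16.4% either way), and in brain the averaged contrasts AKR/J minus C57BL/6J, DBA/2J minus C57BL/6J and DBA/2J minus AKR/J called 2, 4 and 3 genes (5.11%, 4.45% and 3.38% of all genes). The brain counts were 0, 3 and 1 with AKR/J controls 2 and 3 left out, and 5, 5 and 3 without the arrays in doubt. In liver DBA/2J minus C57BL/6J called 11 genes with those 2 controls left out and 13 without the array in doubt. With all arrays DBA/2J minus AKR/J called 11 in liver, 4 higher and 7 lower (6.56% and 4.74% of all genes, 11.3% either way). That contrast called 4 with those 2 controls left out and 12 without the array in doubt. Among sleep-deprived liver arrays alone, Psmb9 was 0.63 ± 0.17 higher in AKR/J than in C57BL/6J (adjusted p = 0.0259). This last comparison was added after the data were seen.

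Genes that work with the proteasome were also followed under sleep deprivation. In brain, of 12 cofactors such as Pomp and Usp14, 10 transcription factors and their processing enzymes, 13 shuttle receptors and p97 partners and the ubiquitin-activating enzyme Uba6, 0 were called (medians of 0.03, 0.02, -0.02 and 0.00). Nfe2l1, the factor that raises subunit genes when the proteasome is impaired, was at 0.01 ± 0.04 in brain (adjusted p = 0.9822) and 0.17 ± 0.06 in liver (adjusted p = 0.109). In liver 1 of 12 cofactors, Ubfd1, was called higher at 0.31 ± 0.06 and 1 of 13 shuttle receptors and partners, Ubqln1, at 0.22 ± 0.05 (adjusted p = 0.0053 and 0.0295), and 0 of 10 transcription factor genes were called. Over all genes 2.97% were called higher in this liver contrast. Among controls, Stat3 was 1.28 ± 0.15 higher in AKR/J than in C57BL/6J brain (adjusted p = 4.661e-05), and the clamp protein Ecpas was 0.60 ± 0.10 higher in AKR/J liver (adjusted p = 7.029e-04). Over all genes 2.01% were called either way in that brain contrast and 4.76% higher in that liver contrast. How well the probes of Stat3 and Ecpas match the AKR/J sequence was not tested.

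Antigen processing genes, which use the peptides that the immunoproteasome makes, were also followed, and their difference between tissues was not examined. In brain the chaperones Calr and Pdia3, which also serve general protein folding, were called higher after sleep deprivation at 0.55 ± 0.05 and 0.61 ± 0.09 (adjusted p = 3.138e-06 and 0.0015), and Tapbp lower at -0.25 ± 0.05 (adjusted p = 0.0215), 3 of 9 in all, where 2.55% of all genes were called. In liver 0 of 9 were called for the mean, and in DBA/2J Tap1 was at -0.73 ± 0.17 (adjusted p = 0.0515), beside the falls of Psmb9 and Psmb10. Among controls Tap1 and Tap2 were higher in DBA/2J than in C57BL/6J liver by 0.93 ± 0.17 and 1.19 ± 0.16 (adjusted p = 0.0013 and 9.414e-05), 2 of 9 where 5.41% of all genes were higher.

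Interferon-stimulated genes were also higher in DBA/2J liver controls. Of 18 interferon-stimulated genes, 11 were called higher and 0 lower in DBA/2J than in C57BL/6J controls (median 0.88; 5.41% of all genes were called higher), led by Igtp at 2.17 ± 0.14 and Oasl2 at 1.71 ± 0.28. The mean of the list was 7.77, 7.97 and 7.28 in the DBA/2J control arrays and 7.71, 7.40 and 6.91 in the sleep-deprived ones, and 6.30 to 6.88 in the other 12. Under sleep deprivation in DBA/2J 1 of the 18 was called, Igtp, lower at -0.77 ± 0.14 (adjusted p = 0.0169; 0.302% of all genes were called lower). The 8 microglia and macrophage markers averaged 8.19, 7.91 and 7.46 in DBA/2J controls, 7.40 to 7.73 in C57BL/6J and 6.70 to 7.09 in AKR/J. The DBA/2J and C57BL/6J arrays overlapped, and the C57BL/6J arrays lay above those of AKR/J. Of the 8, 1 was called higher in DBA/2J than in C57BL/6J, and 7 of 8 higher than in AKR/J (3.46% of all genes). The 8 lymphocyte markers averaged 4.99 to 5.17 in DBA/2J controls and 4.93 to 5.03 in C57BL/6J. In whole tissue, more cells of a type and more RNA per cell cannot be told apart, and the part of these genes in the result was not tested.

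**Figure D5:**
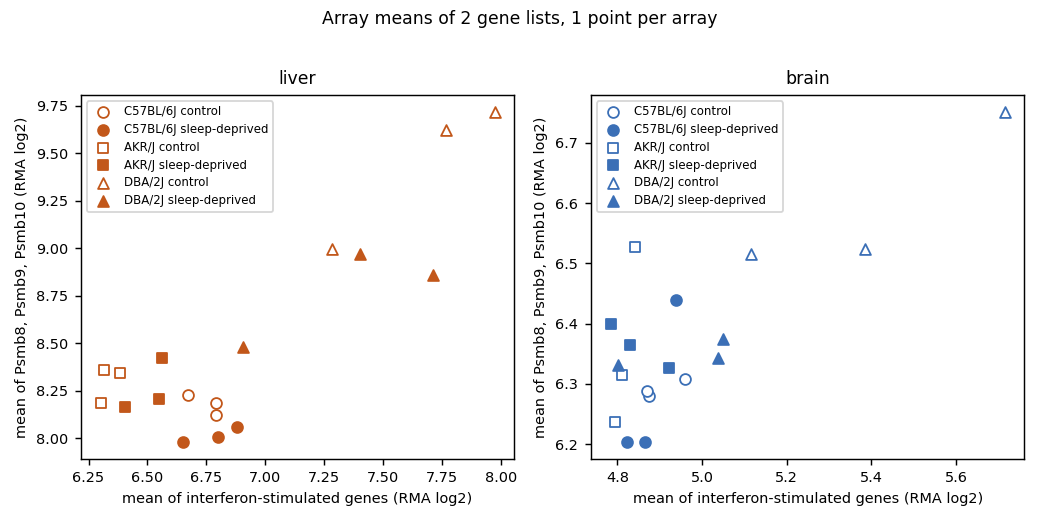
Mean RMA value (log2) of Psmb8, Psmb9 and Psmb10 on the vertical axis against that of 18 interferon-stimulated genes on the horizontal axis, with 1 point per array, liver left and brain right, on separate axis ranges. Circles are C57BL/6J, squares AKR/J and triangles DBA/2J, open for controls and filled for sleep-deprived arrays. In liver the 6 DBA/2J arrays are the highest on both axes, and in brain the 3 DBA/2J controls are highest on the horizontal axis.

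In brain the same interferon-stimulated list averaged 5.72, 5.38 and 5.12 in DBA/2J controls, 4.80 to 5.05 in sleep-deprived DBA/2J and 4.78 to 4.96 in the other 12 arrays. Compared with C57BL/6J controls 4 of 18 were called higher in DBA/2J brain controls (1.77% of all genes were called either way there and 0.984% lower). The brain array with the highest list mean, DBA/2J control 1, was also the one in which Psmb9 stood at 6.20. The mean of Psmb8, Psmb9 and Psmb10 was 6.75, 6.52 and 6.52 in the DBA/2J brain controls and 6.20 to 6.53 in the other 15 arrays.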

How the data were processed

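Expression was measured on 36 Affymetrix arrays, each of RNA pooled from 3 mice. The authors deposited log2 values, and RMA is named per the submitters' processing notes, with no version given in the sources used here. The number of arrays limits the precision. Of 45101 probe sets, 64 controls were left out. GEO's platform annotation gave 34945 probe sets 1 symbol, 932 several and 9160 none.

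The members and gene lists were chosen with earlier results of these data known. In R 4.3.3, limma 3.58.1 fitted means of the 6 groups of a tissue to its 18 arrays (lmFit, eBayes), and p-values were adjusted by Benjamini-Hochberg over 45037 probe sets. A separate fit over 36 arrays compared tissues and treated brain and liver arrays as independent. Named were the called members, the largest change in each role, and fixed genes such as Psmb5 to Psmb10. Probe sets, normalization, variance model and left-out arrays were varied. The fits within a tissue were checked on simulated arrays first. Replicate numbers were not used to pair samples in the reported fits. Same-numbered arrays correlated from -0.42 to 0.41, over 0.1 in 5 of 18 pairs. The same number gave the highest correlation in 8 of the 18. With so few arrays in a group, these correlations cannot decide whether same-numbered arrays belong together. No sequence was read from the arrays, and 41 of 49 genes matched a RefSeq promoter.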

Additional observations from a re-analysis of the deposited data

Results flagged for a closer look

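Strain differences among controls were compared between tissues after the data were seen, and 7 differed by the test of the difference itself (limma over 36 arrays). Of 49 members, 4 were called for DBA/2J minus C57BL/6J and 3 for DBA/2J minus AKR/J (3.33% and 2.58% of all genes). For AKR/J minus C57BL/6J 0 were called. For DBA/2J minus C57BL/6J, the liver value exceeded the brain value by 1.24 for Psmb9, 1.10 for Psmb8 and 0.55 for Psmb10 (adjusted p = 0.0012, 0.0071 and 0.0322). Psmb6 was at -0.33 in liver and -0.90 in brain, less negative in liver by 0.57 (adjusted p = 0.0109). For DBA/2J minus AKR/J the excess was 1.08 for Psmb9, 1.03 for Psmb8 and 0.62 for Psmb10 (adjusted p = 0.0065, 0.0152 and 0.0132). Both sets share the DBA/2J controls, and Psmb8 and Psmb9 had mean signals at percentiles 57.4 and 61.2 of the brain levels. Without the 6 arrays in doubt, Psmb9 and Psmb6 of the first set and 0 of the second were still called. With AKR/J controls 2 and 3 of both tissues left out, 0 of the second set were called, with adjusted p from 0.2391 to 0.7699, and of the first set Psmb10 was no longer called (adjusted p = 0.0600).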

How the results depend on the processing

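Counts below are proteasome genes called, and leaving out 1 array at a time is given as a range. Over the 23 results, 607 of 714 alternative counts and medians stayed within the tolerance of the reported value. Of the values for single genes, 716 of 840 kept their side of the threshold, 117 lost the call, 7 gained one and 0 changed sign.

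With array weights, brain gave 1 lower for the mean sleep deprivation effect, 2 in AKR/J, 7 for the strain test, 4 for AKR/J minus C57BL/6J and 5 for DBA/2J minus C57BL/6J, and liver gave 1 higher and 2 lower for the mean effect and 9 for AKR/J minus C57BL/6J. With the mean of a gene's probe sets, brain gave 1 lower for the mean effect and 1 each for the strain test and both DBA/2J comparisons, and liver 1 higher and 2 lower for the mean effect, 1 in C57BL/6J, 9 for AKR/J minus C57BL/6J and 9 for DBA/2J minus C57BL/6J. Median centring gave 1 higher and 0 lower for the liver mean effect and 1 each in C57BL/6J and DBA/2J. Fitting only the groups of a contrast gave 1 each for the brain strain test and both brain DBA/2J comparisons, 0 for sleep deprivation in DBA/2J liver and 2 for AKR/J minus C57BL/6J liver. With only probe sets above the median level, the liver mean effect had 1 higher and 2 lower. Replacing probe sets that can read several transcripts, where the gene had one of another kind, gave 1 for the brain strain test and both brain DBA/2J comparisons. A second quantile normalization gave 1 for DBA/2J minus AKR/J in brain, 4 lower for the liver mean effect and 1 for the tissue difference of that effect. Averaging both conditions gave 2 and 4 in brain for AKR/J and DBA/2J minus C57BL/6J, and 21, 11 and 11 in liver for these and DBA/2J minus AKR/J. A variance trend gave 1 for DBA/2J minus C57BL/6J in brain.

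Leaving out the 5 brain arrays in doubt gave 1 lower for the mean effect (Psmf1) and 1 in AKR/J. Leaving out the 3 of narrow spread gave 1 in AKR/J and 1 for AKR/J minus C57BL/6J, and the 2 of raised actin 1 for DBA/2J minus C57BL/6J. Leaving out AKR/J controls 2 and 3 gave 1 each for the brain strain test and both DBA/2J comparisons, and in liver 0 lower for the mean effect, 1 in DBA/2J, 5 for the strain test, 0 for AKR/J minus C57BL/6J and 2 for DBA/2J minus AKR/J. Leaving out DBA/2J liver control 1 gave 0 lower for the mean effect and 0 in DBA/2J.

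Without 1 array at a time, the brain strain test and both DBA/2J comparisons gave 1 to 2. In liver the mean effect gave 0 to 1 higher and 0 to 5 lower, C57BL/6J 0 to 1, DBA/2J 0 to 4, the interaction 0 to 1, the strain test 6 to 10, AKR/J minus C57BL/6J 1 to 7, DBA/2J minus C57BL/6J 5 to 7 and DBA/2J minus AKR/J 4 to 6. The medians of the mean effect ran from -0.05 to -0.00 in brain and from -0.05 to -0.03 in liver. The cause of these changes was not tested. With the replicate block, 6 in place of 5 genes were called for AKR/J minus C57BL/6J in liver, and every other count of members was as without it, 0 for the mean effect in brain and 1 in liver. The 3 pools a group limit the precision.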
